A study of Mus musculus with 6 samples.

Results

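Bile duct cells (cholangiocytes) and the progenitor cells that share their markers were followed here through 9 genes: Prom1, Pkhd1, Epcam, Krt19, Krt8, Krt18, Sox9, Spp1 and Cd24a. Every probe set whose single platform gene symbol is one of these names was taken, dim ones included, which gave 7 of the 11811 probe sets in the table, for 5 genes: Prom1, Pkhd1, Krt8 (3 probe sets), Krt18 and Cd24a. Epcam, Krt19, Sox9 and Spp1 were not analysed here, because no probe set of the table used here is named for them. The rule itself uses names only, but the genes on the list were chosen with the knockout and wild-type signals of these arrays known, so they count as selected on the difference between those groups. The members' values are therefore given as a description, with no p-value of their own.

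The samples were total RNA from liver of Atp7b knockout mice (KO903, KO904 and KO905) and of wild-type mice (WT4, WT5 and WT6), each on 1 Affymetrix array. Atp7b is the copper-transporting ATPase that loads copper onto ceruloplasmin and exports it into bile, and its loss causes Wilson disease. The series title places the animals early in copper accumulation. The labels cite an earlier report on the knockout line and give no strain, age, sex or diet, and no further allele or agent.

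Hepatocytes of adult liver carry a simple keratin network made of keratin 8 and keratin 18, which pair one to one, while bile duct cells carry these and also keratins 7 and 19. Prominin-1 (Prom1, CD133) is a membrane protein of apical protrusions, found on duct cells and on liver progenitor cells. Fibrocystin (Pkhd1) sits on the primary cilium of duct cells, and its loss causes autosomal recessive polycystic kidney disease with malformed bile ducts. Duct-like cells multiply in many forms of chronic liver injury, the late stage of this mouse model among them. Of the genes measured, Krt8 and Krt18 are thus shared with hepatocytes, and the duct and progenitor label rests on Prom1, Pkhd1 and Cd24a. In RNA of whole liver, more cells of a type and more RNA per cell cannot be told apart.

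The stretches before the starts of Pkhd1, Krt8 and Krt18 are shown because Pkhd1 is a known target of the HNF1 factors of duct cells, and because the keratin pair lies together in the genome, with 2 annotated genes between them. RefSeq (GRCm38.p6) windows matched 4 of the 5 measured genes. Each stretch ends at the base before the gene's annotated extent, runs 5′ to 3′ along the gene's strand, and lies at chr1:20618083-20618307 (minus strand) for Pkhd1, chr15:102004343-102004592 (minus strand) for Krt8 and chr15:102027966-102028215 (plus strand) for Krt18. Capitals mark matches on either strand to the motifs searched.
Pkhd1: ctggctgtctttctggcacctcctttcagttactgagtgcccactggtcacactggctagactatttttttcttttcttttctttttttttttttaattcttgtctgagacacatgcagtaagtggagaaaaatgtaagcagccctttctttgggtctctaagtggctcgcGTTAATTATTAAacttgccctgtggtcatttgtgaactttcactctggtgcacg
Krt8: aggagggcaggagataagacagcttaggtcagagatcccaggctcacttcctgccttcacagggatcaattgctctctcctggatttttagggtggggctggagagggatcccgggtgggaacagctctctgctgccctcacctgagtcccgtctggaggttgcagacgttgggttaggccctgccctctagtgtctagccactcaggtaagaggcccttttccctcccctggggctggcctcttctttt
Krt18: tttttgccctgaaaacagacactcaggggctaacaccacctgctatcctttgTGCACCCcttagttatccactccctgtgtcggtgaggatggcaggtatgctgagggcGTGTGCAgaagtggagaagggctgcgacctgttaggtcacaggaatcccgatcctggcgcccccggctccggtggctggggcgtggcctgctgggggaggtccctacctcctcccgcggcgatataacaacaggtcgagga

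The motifs were searched on both strands in the 250 bases before each start, and their letters were settled after the Pkhd1 window had been read. The HNF1 motif, taken as GTTAAT and ATTAA with 1 base between them, occurred in Pkhd1 at 79 to 68 bases before the transcript start of its window, and in 0.0609% of all 32851 windows of that length. The core of the metal response element, written TGCGCNC or TGCACNC, occurred in Krt18 at 2 places, against at least 1 place in 21.4% of all windows. The AP-1 motif TGANTCA (6.75% of windows) and the GC box GGGCGG (32.7%) were met in Prom1, whose windows lie inside the gene's annotated extent and are not printed. The TATA box TATAAA (12.4% of windows) was not met in any member's window. No match overlapped another. A match of letters is a description and not evidence that a factor binds there.

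Across the whole table, 10620 probe sets with a mean signal of at least 100 were fitted with limma on log2(signal + 16), and 440 of them (4.14%) had a Benjamini-Hochberg adjusted p under 0.05, which is what "called" means here. Higher in the knockout were 218 (2.05%), and 222 were lower (2.09%). Without 1 sample the count was 193 (KO903), 175 (KO904), 229 (KO905), 252 (WT4), 469 (WT5) or 270 (WT6). The probe set of the targeted gene, Atp7b, read 240.5, 231.8 and 184.9 in KO903, KO904 and KO905 and 259, 299.7 and 241 in WT4, WT5 and WT6. That is a log2 difference of -0.27 ± 0.16 (SE, limma adjusted p = 0.407), so the array does not check the genotype, and where the probes lie relative to the disrupted part was not examined. Hepatocyte markers were bright on every array, with Alb (albumin) between 21282 and 27522. Ratios of 3' to 5' signal for actin were 1.17 to 1.22 in the knockout and 1.10 to 1.47 in wild type.

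Prom1 was the member with the clearest difference. Its probe set (1419700_a_at) gave signals of 563.9 in KO903, 372.2 in KO904 and 622.3 in KO905, against 241.6 in WT4, 197.6 in WT5 and 237.4 in WT6. The groups did not overlap, and KO904 was the lowest knockout sample. The means were 519 ± 131 and 226 ± 24.3 (SD, n = 3 each), which is 2.18-fold on the log2(signal + 16) scale, or a log2 difference of 1.12 ± 0.19 (SE). Prom1 was also the only one of the 5 tested member probe sets that was called (1 higher and 0 lower, beside the 4.14% of all tested probe sets), and since the list was drawn up with this contrast known, nothing is read from that count. With 1 sample left out its log2 difference lay between 0.98 (without KO905) and 1.34 (without KO904). Prom1 passed from below the array's median probe set to above it: 31% to 37.9% of probe sets were dimmer in the wild-type samples and 53.2% to 69.5% in the knockout samples.

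**Figure D1:**
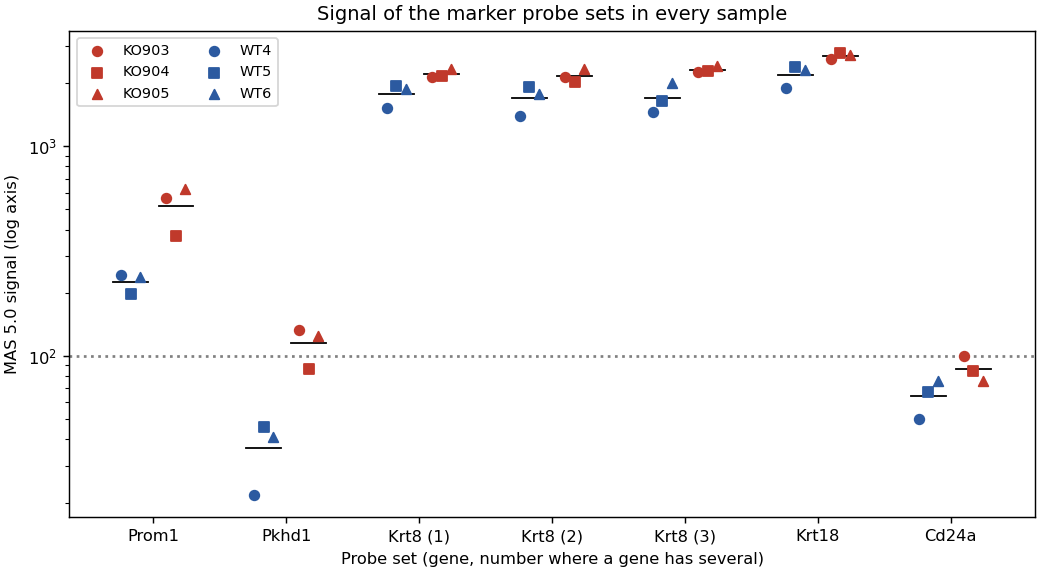
MAS 5.0 signal (log axis) of the 7 member probe sets in each of the 6 samples, with circles, squares and triangles for the 3 samples of a group, knockout in red, wild type in blue and black lines at the group means; the dotted line is the minimum mean signal of 100. All knockout samples lie above all wild-type samples for Prom1, Pkhd1, Krt8 and Krt18, and the groups overlap for Cd24a.

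Pkhd1 showed a similar difference at a far lower signal. Its probe set (1419820_at) read 133.1, 86.9 and 124.2 in KO903, KO904 and KO905 and 21.8, 45.7 and 41.2 in WT4, WT5 and WT6. As for Prom1, the groups did not overlap and KO904 was the lowest knockout sample. The group means were 115 ± 24.5 and 36.2 ± 12.7 (SD, n = 3 each), and the log2 difference was 1.34 ± 0.24 (SE). In wild type the signal was among the dimmest of the array, with only 0.0934% to 1.6% of probe sets below it, and no detection calls were used, so whether it stood above background there is not known. Its mean over all samples, 75.5, was under the minimum of 100, and it entered the fit only when no minimum was set, where it was called. The size of the difference depended on the pseudocount, from 0.83 with 64 to 1.68 with 1 on the log2 scale.

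The paired keratins of simple epithelia, Krt8 and Krt18, differed by much less and at high signal. The first Krt8 probe set (1420647_a_at) read 2144, 2157 and 2337 in KO903, KO904 and KO905 and 1519, 1942 and 1866 in WT4, WT5 and WT6. Krt18 (1448169_at) read 2602, 2767 and 2707 in the same knockout samples and 1895, 2369 and 2299 in wild type. In both, the knockout samples lay close together and above all wild-type samples, and WT4 was the lowest of all. The second Krt8 probe set (1423691_x_at) read 2130, 2020 and 2332 in the knockout and 1388, 1914 and 1762 in wild type. The third (1435989_x_at) read 2246, 2267 and 2419 against 1456, 1632 and 2000. These 3 probe sets measure 1 gene and are not independent, and the suffix _x_at marks probes that can also bind similar transcripts.

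The log2 differences were 0.32 ± 0.12, 0.36 ± 0.13 and 0.45 ± 0.13 (SE) for the 3 Krt8 probe sets and 0.30 ± 0.11 (SE) for Krt18, or 1.23-fold to 1.37-fold. None of the 4 was called. The third Krt8 probe set was called without WT6 (log2 difference 0.58) and with array weights (0.49). WT4 stood at 82.3% to 86.6% of the wild-type mean on the 4 keratin probe sets, and without it the differences were 0.20 (Krt18) to 0.35 (the third Krt8 probe set). WT5 and WT6 differed in order between the probe sets: WT5 was the higher on 3 of the 4 and WT6 on the third Krt8 probe set.

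Cd24a, a small surface glycoprotein of progenitor cells, duct cells, immature red cells and many leukocytes, was dim throughout. Its probe set (1448182_a_at) read 99.3, 84.9 and 75.8 in KO903, KO904 and KO905 and 50, 67 and 76.2 in WT4, WT5 and WT6. The groups overlapped, with KO905 just under WT6, and the log2 difference was 0.36 ± 0.20 (SE). It was under the minimum signal and was not called when no minimum was set.

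**Figure D2:**
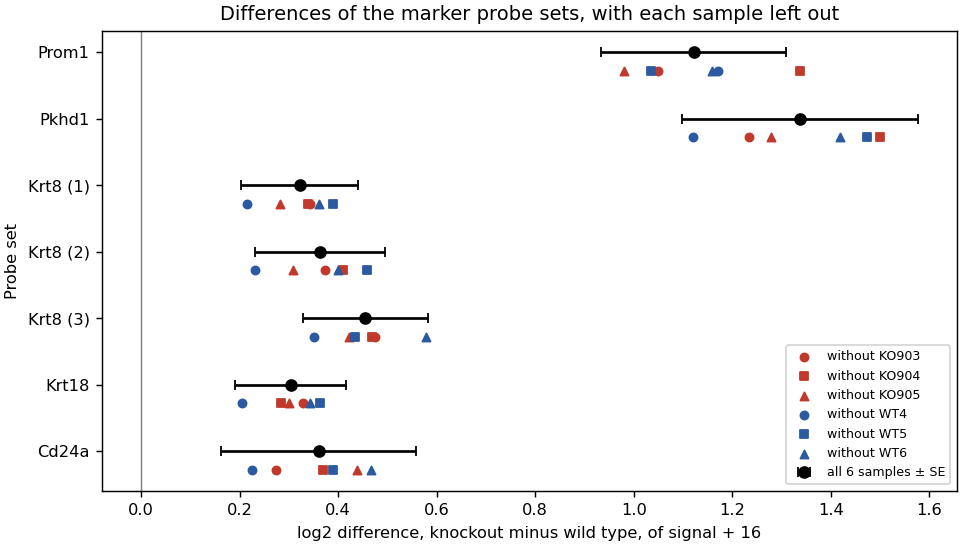
Log2 difference (knockout minus wild type, of signal + 16) of each member probe set: black points with limma standard errors for all 6 samples, and below them the value with each sample left out (red for a knockout, blue for a wild-type sample). Prom1 and Pkhd1 lie at 0.98 or above with any 1 sample left out, and the keratins and Cd24a between 0.20 and 0.58.

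Among the 7 member probe sets, the log2 differences were thus all above 0, and 6 had no overlap between the groups, beside 12.7% of all 11778 probe sets other than controls in the same direction; among the 5 tested member probe sets it was 5, beside 13.2% of the 10620. Because this contrast was known when the members were listed, nothing is read from that count. No member changed the sign of its difference with any 1 sample left out or under the 9 settings that kept all samples and tested probe sets singly. Among those settings, changes of the signal minimum or of the eBayes options cannot alter the difference. Over the 6 arrays, the probe sets whose log2 signal followed Prom1 most closely by Pearson's r were those of Hsdl2 (0.991), C4bp (0.989), Ppp1r11 (0.987), Trim2 (0.986) and Xpo1 (0.986). These r values are a description: all 6 arrays fall into the same 2 groups, and a difference between groups alone gives a high r.

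Beyond the members, 120 other genes of duct and progenitor biology were listed, of which 59 had a probe set and 53 were tested. In limma 0 of the 53 were called, while 11 had an unadjusted p under 0.05, all of them higher in the knockout; over all tested probe sets, 17.9% had such a p and 9.69% had it as higher. These lists too were written with earlier results known, so nothing is read from that count. Their median log2 difference was 0.06 and 60.4% were above 0, against a median of 0.03 and 54.6% over all tested probe sets. A single gene was called without WT5 (Psen2, a catalytic subunit of gamma-secretase, log2 difference 0.56, adjusted p = 0.0381, limma). With all samples Psen2 was not called (0.33 ± 0.18, SE, limma adjusted p = 0.387). Its signal in WT5 was 3423.8, above KO903 (3088), KO904 (3038.5) and KO905 (3224.7). Summed signals of the duct epithelium list were 14820 to 15381 in the knockout and 13517 to 14375 in wild type. Its brightest gene, Clu, had a mean signal of 9221 and groups that overlapped. The progenitor and fetal liver sums were 1416 to 1896 and 1172 to 1364. The cilium and polycystic disease sums were lower in the knockout, 2203 to 2369 against 2406 to 2509. Sums of the other related lists overlapped between the groups.

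Of 11 tested genes of duct epithelium, 7 were above 0 and the median was 0.08. The smallest p belonged to Cdh1, the epithelial cadherin, which is made by duct cells and by part of the hepatocytes. Its signal was 539.5, 330.5 and 427.9 in KO903, KO904 and KO905 and 291, 180.9 and 263.2 in WT4, WT5 and WT6. The groups did not overlap, KO904 was again the lowest knockout sample, and the gene missed the threshold (log2 difference 0.78 ± 0.21, SE; limma adjusted p = 0.0618).

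Among 16 Notch and YAP signalling genes, pathways that direct duct cell fate, 10 were above 0, with a median of 0.08. Notch1, a receptor of that pathway, read 378.9, 400.7 and 386.1 in the knockout and 275.6, 281.9 and 275.3 in wild type. The samples of each group were close together and the groups were apart (log2 difference 0.46 ± 0.12, SE), and the gene missed the threshold (limma adjusted p = 0.0638). It passed in a separate fit of genes rather than probe sets (adjusted p = 0.0363, limma). Notch1 had 1 named probe set, so its values and its log2 difference were the same in both fits. What differed was the rest of the fit, which sets the shared variance and the correction for many tests. Which of these moved it past the threshold was not examined.

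Of 4 tested progenitor and fetal liver genes, 2 were above 0 (median 0.18). Hhex, a homeobox gene of early liver and duct development, had the smallest p, with 1167, 601.6 and 762.6 in KO903, KO904 and KO905 and 456.5, 678.4 and 476.4 in wild type. WT5 lay above KO904, and the log2 difference was 0.61 ± 0.23 (SE; limma adjusted p = 0.182).

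Keratin filaments attach to desmosomes through linker proteins, and 7 of 11 tested linker and desmosome genes were above 0 (median 0.03). Pkp2, a desmosomal plaque protein, had the smallest p (log2 difference 0.33 ± 0.12, SE; limma adjusted p = 0.172). Of 5 tested cilium and polycystic disease genes, in which Pkhd1 has its place by function, 1 was above 0 (median -0.09). Invs, the ciliary protein inversin, had the smallest p there (log2 difference -0.24 ± 0.20, SE; limma adjusted p = 0.588). Of 6 receptors of osteopontin (the product of Spp1) and partners of CD24 and EpCAM, 5 were above 0 (median 0.22). The integrin subunit gene Itgav came first, with 720.2, 677.9 and 777 in the knockout against 580.8, 505.8 and 536.1 in wild type and no overlap (log2 difference 0.41 ± 0.12, SE; limma adjusted p = 0.0884).

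**Figure D3:**
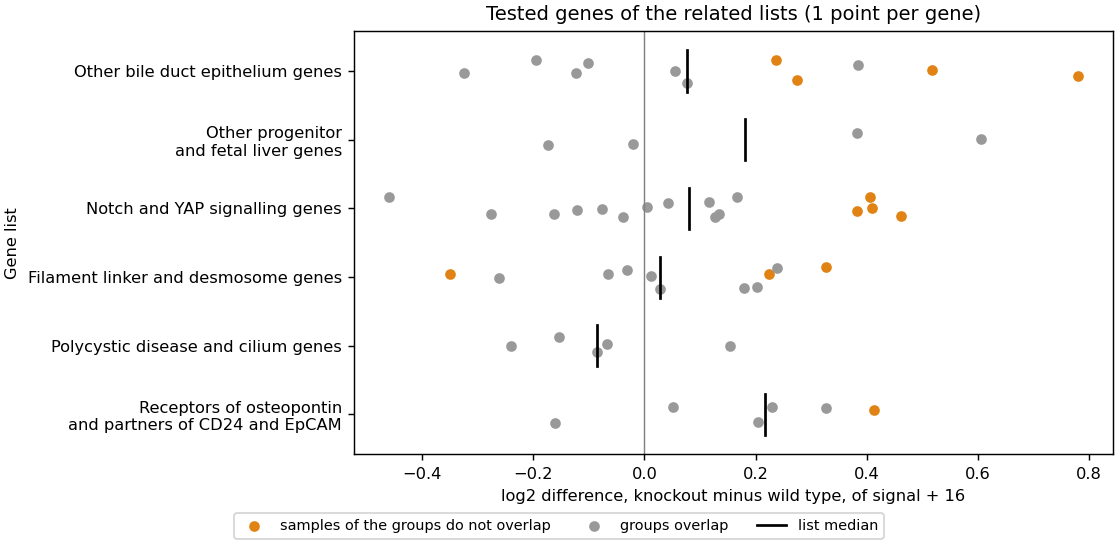
Log2 difference (knockout minus wild type, of signal + 16) of the 53 tested genes in 6 related lists, 1 point per gene; orange points are genes whose samples do not overlap between groups, grey points overlap, and black bars are list medians. Medians lie between -0.09 and 0.22, and the gene farthest to the right is Cdh1 at 0.78.

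Markers of other liver cells were read beside the members. All 11 tested macrophage and Kupffer cell markers were above 0 (0 called in limma, 4 at an unadjusted p under 0.05), with a summed signal of 6525 to 8732 in the knockout and 4692 to 6673 in wild type. The brightest was Csf1r, the receptor of colony-stimulating factor 1 (log2 difference 0.33 ± 0.15, SE). Of 9 endothelial markers 8 were above 0 (0 called in limma, 5 at an unadjusted p under 0.05), with sums of 4549 to 5773 and 3638 to 4253 that did not overlap. The brightest was the Fc receptor gene Fcgr2b (0.61 ± 0.16, SE), and among those 5 the hyaluronan receptor gene Lyve1 went the other way (-0.56 ± 0.22, SE). For stellate cells and fibroblasts the sums overlapped (6162 to 7315 and 5438 to 7299), 3 of 6 markers were above 0 and 0 were called in limma (1 at an unadjusted p under 0.05). Their brightest marker was the proteoglycan gene Dcn (0.21 ± 0.12, SE).

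Of 12 hepatocyte markers 3 were above 0 and 0 were called in limma (2 at an unadjusted p under 0.05, both lower), with sums of 154291 to 176509 and 161691 to 199486; the brightest was the apolipoprotein gene Apoa2 (-0.04 ± 0.12, SE). Of 2 tested erythroid markers, Alas2, the first enzyme of heme synthesis in red cells, rose from 398 ± 20.3 to 814 ± 91.8 (SD, n = 3 each, limma adjusted p = 0.00183). The other, Klf1, was not called and its groups overlapped (0.29 ± 0.21, SE, limma adjusted p = 0.526). The erythroid sums were 873 to 1059 in the knockout and 515 to 550 in wild type. The neutrophil markers gave 566 to 850 and 528 to 806, with 0 of 2 called in limma (0 at an unadjusted p under 0.05); the brighter was Lcn2, or lipocalin 2 (0.12 ± 0.21, SE). The single lymphocyte marker, the B cell gene Ms4a1, was not called (0.40 ± 0.18, SE; limma adjusted p = 0.278). Of 2 tested exocrine pancreas markers, the elastase gene Cela1 rose (0.77 ± 0.14, SE; limma adjusted p = 0.0106) and Cel did not pass, with sums of 1273 to 1507 and 743 to 926. No probe set of the table used here is named for a mesothelial marker, and no marker of any list was at 0 on any array. The part of these cells in the differences of Prom1, Pkhd1, Cd24a and the keratins was not tested.

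**Figure D4:**
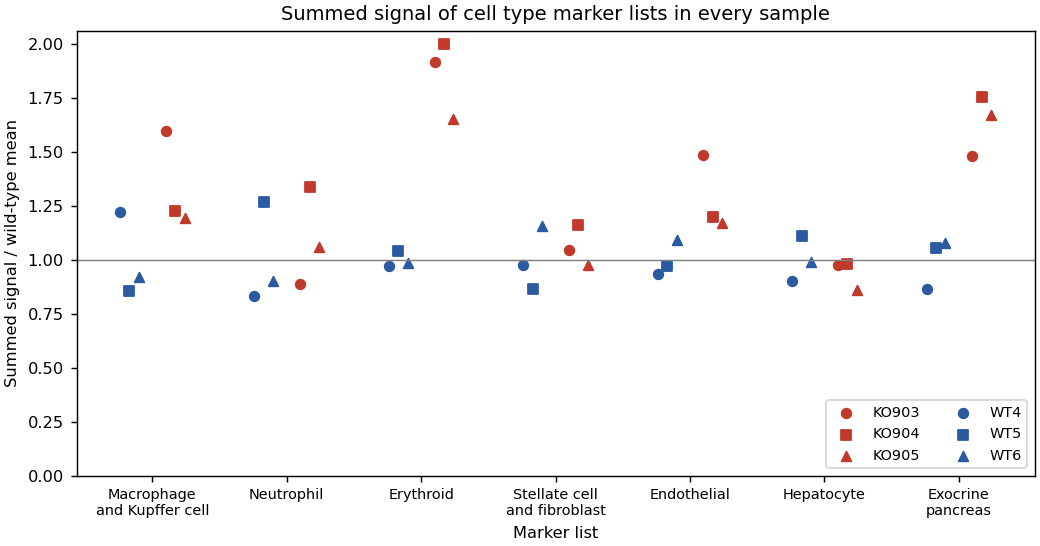
Summed signal of each marker list with at least 2 probe sets, divided by its wild-type mean, in each sample (knockout in red, wild type in blue; the grey line is the wild-type mean). The knockout samples lie above all wild-type samples for the erythroid, endothelial and exocrine pancreas lists and overlap with them for the others. The erythroid and exocrine pancreas sums rest on 2 genes each, and the groups overlapped for Klf1 and for Cel.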

How the data were processed

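The deposited values are linear intensity values; per the labels they are MAS 5.0 signals, with each array scaled by the authors to a target average of 350, and the submitters' processing notes name MAS5. The choice of the table's 11811 probe sets was given by no source used here. Arrays have no sequencing depth; their number limits the precision. Median signals were 330.2 to 342.4, and at most 0.0847% of values were identical between 2 arrays.

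Groups came from the sample titles. Nothing states outright that the samples are separate animals, so p-values reflect only how these samples spread, which may be technical. The fit was limma 3.58.1 in R 4.3.3 (lmFit and a two-sided eBayes test with the trend option) on log2(signal + 16), which understates the change of low signals, over all 10620 probe sets left after 33 controls and 1158 with a mean under 100 were dropped. Members under that minimum took their standard errors from the same fit without it. The model was tested on simulated data with independent normal noise, which cannot show how well it holds on these arrays. Figures used Python 3.11.15 with matplotlib 3.10.9.

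Names came from the platform annotation, updated through Entrez identifiers in RefSeq (10762 of 10776 found, 0 changed); probe sets with several symbols (418) or none (584) were not named. A gene outside the members was represented by its brightest tested probe set. The summed signals also took in genes under the minimum signal, each by its brightest probe set. The stellate sums thus covered 9 genes, of which 6 were tested. The members and all lists were chosen with earlier results of these data known. Named were all members, the called genes of each related list (at most 4) or else the gene with the smallest p, the brightest gene of each marker list, and the 5 probe sets most like the tested member with the largest difference (Prom1). Psen2, Clu, Cel, Klf1, Lyve1 and Alb, and the details of Krt8 by sample left out, were named after their values were seen.

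Alternatives were quantile normalization, centring on the array median, a pseudocount of 1 or 64, no signal minimum or 200, eBayes without trend or robust, array weights, each sample left out, and averaging a gene's probe sets.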

Additional observations from a re-analysis of the deposited data

How the results depend on the processing

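The number of called probe sets was 440, between 175 and 469 with 1 sample left out, and within 1.5 times of 440 under each of the 9 alternatives that kept all samples. Among the member probe sets 1 was called (Prom1), and Prom1 was called under all 15 alternatives fitted on single probe sets (members were not read in the fit on averaged probe sets). It was joined by Pkhd1 without a signal minimum (2 called) and by the third Krt8 probe set with array weights (2 called). With 1 sample left out 1 to 2 were called. Over all tested probe sets 4.14% were called in the main fit. Because this contrast was known when the members were listed, nothing is read from these member counts. Of the other duct and progenitor genes 0 were called, and 0 to 1 with 1 sample left out. In the separate fit on averaged probe sets 1 was called (Notch1, whose 1 probe set was averaged with no other). Of 105 alternative log2 differences of member probe sets, 103 moved by less than 1 SD between replicates, and the other 2 were those of Pkhd1 with a pseudocount of 1 (1.68) or 64 (0.83). Changes of the signal minimum or of the eBayes options cannot alter a log2 difference, so their values among the 105 were fixed in advance. All 89 alternative values of the related genes named by the smallest p kept their direction and their side of the threshold in the fits on probe sets. Under those same changes only the side of the threshold could move. No paired analysis was possible because the sample numbers of the groups differ. With 3 arrays a group, the smallest p of an exact permutation test is 0.1.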
